A study of Mus musculus with 6 samples.

Results

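Complement genes were followed in the myometrium, the smooth muscle wall of the uterus, of mice late in pregnancy. The 9 genes C1ra, C2, C4b, C3, Cfb, Cfd, C7, Cd55 and Serping1 were taken by symbol from the 55055 genes of the deposited tables, and each symbol matched 1 gene. The compared groups were 3 Tcf23 KO animals, carrying a CRISPR/Cas9 knockout of the basic helix-loop-helix gene Tcf23, and 3 Tcf23 WT animals, 1 poly(A)-selected RNA library per animal. All were pregnant and were taken at E19.5 per the sample labels, or gestational day 19 per the series design; the sources used here do not give strain, maternal age or the position of the edit. The series was designed around the role of Tcf23 in uterine contraction, and the comparison asks how complement genes differ in its absence.

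Complement is a cascade of secreted proteases and binding proteins that marks surfaces for uptake and can assemble a pore in a membrane. The classical route starts with the C1 complex, which cuts C4 and C2; the lectin route starts with sugar-binding proteins; and the alternative route runs through factor B and factor D. All routes meet at C3, and inhibitors in plasma and on host cells hold the cascade in check. Much of the circulating protein comes from the liver, but many tissues make components themselves, and in rodents uterine C3 is known as a product of the epithelium that responds to oestrogen.

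Total counts ran from 39939686 to 65036402 in KO libraries and from 47345181 to 55236312 in WT libraries, and 19599 genes passed the filter on low counts. Tcf23 had 0, 2 and 1 counts in KO libraries, against 4203, 5970 and 3360 in WT libraries, which matched the labels in 6 of 6. The libraries differed in cell type marker levels, within the KO group and, for some markers, between genotypes. Summed CPM (counts scaled by library size) of 6 smooth muscle markers, all detected, were 31593, 35579 and 13979 in KO replicates 1, 2 and 3, against 25196 to 29499 in WT. The sum of 6 uterine epithelial markers was 1848, 609 and 3106 in KO and 1055 to 2331 in WT, and that of 6 placental and fetal membrane markers was 251, 8.47 and 0.658 in KO and 24.7 to 35.8 in WT. KO replicate 3 thus had the least muscle and the most epithelial signal. The placental sum of KO replicate 1 was almost all Tpbpa, at 244 CPM; without that gene, the sums were 7.1, 1.3 and 0.415 CPM in KO replicates 1, 2 and 3 and 4.29, 15.5 and 2.71 CPM in WT replicates 1, 2 and 3, highest in WT replicate 2. The mesothelial marker Msln had 28.1, 14 and 17.7 CPM in KO and 73.4, 41.7 and 64 CPM in WT (DESeq2 adjusted p = 0.000212, edgeR adjusted p = 0.215). Upk3b and Lrrn4 had log2 changes of −2.87 and −3.08 with overlapping groups. Wt1 (−0.21) and Krt19 (0.02), from the same list, overlapped as well. The sum of the 5 mesothelial markers, to which Krt19 gave the largest part, was 580, 211 and 900 CPM in KO and 756, 390 and 768 CPM in WT. Of 6 fibroblast markers, Dcn and Lum were lower in each KO library than in any WT library, as were 7.01% of all tested genes. Their log2 changes were −0.42 and −0.63. Groups overlapped for Pdgfra (−0.26), Dpt (−0.39), Col1a1 (0.16) and Col3a1 (0.29). The fibroblast sum overlapped too, at 14012 to 17182 CPM in KO and 12731 to 20536 CPM in WT. The part of mesothelial and fibroblast content in the results below was not tested. Because the tissue was sequenced in bulk, a change in the number of cells of a type and a change in RNA per cell cannot be told apart.

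Promoter sequences are shown for the most abundant member, for the member that was lower in each KO library, and for the member that was almost silent. They are the 250 bases before the annotated RefSeq start (GRCm38.p6), 5′ to 3′ on the gene's strand, and such windows were found for 5 of the 9 genes. Capitals mark matches, on either strand, to GGTCA, the core of an oestrogen response element, or to TTGCNNAA, a C/EBP-type site; TATAA was searched as well, and the 3 motifs do not overlap in these windows.
C3 (chr17:57228137-57228386, minus strand): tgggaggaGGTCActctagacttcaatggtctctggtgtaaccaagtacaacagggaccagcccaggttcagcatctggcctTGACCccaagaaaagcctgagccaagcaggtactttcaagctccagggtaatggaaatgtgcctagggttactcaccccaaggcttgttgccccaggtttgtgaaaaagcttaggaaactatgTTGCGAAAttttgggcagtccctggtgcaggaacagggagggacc
Cd55 (chr1:130462745-130462994, minus strand): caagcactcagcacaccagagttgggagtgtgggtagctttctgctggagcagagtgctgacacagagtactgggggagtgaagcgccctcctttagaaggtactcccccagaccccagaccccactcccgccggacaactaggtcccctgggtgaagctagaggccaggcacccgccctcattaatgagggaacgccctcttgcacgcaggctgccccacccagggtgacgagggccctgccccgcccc
Cfd (chr10:79890603-79890852, plus strand): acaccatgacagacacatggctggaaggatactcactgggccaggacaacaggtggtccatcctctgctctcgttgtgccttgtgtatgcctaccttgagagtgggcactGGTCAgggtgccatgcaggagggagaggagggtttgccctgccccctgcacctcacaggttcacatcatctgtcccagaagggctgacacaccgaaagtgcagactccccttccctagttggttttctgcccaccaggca

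The C3 window held GGTCA at 242 to 238 bases before the start, its reverse complement at 168 to 164 bases, and TTGCNNAA at 45 to 38 bases. A TATAA match lay 15 to 19 bases after the annotated start of C3, outside the stretch printed. The Cfd window held 1 GGTCA match and the Cd55 window none of the 3 motifs. Over 300 bases around each of 32851 annotated starts, GGTCA occurred in 40.5%, TATAA in 24.9% and TTGCNNAA in 10.8%. The Cd55 stretch was the richest of the 3 in G and C, at 64%, against 57.6% for Cfd, 52% for C3 and a median of 52.4% over all windows. A match is a run of letters, and binding was not measured.

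Levels can be compared between genes once counts are divided by exon length, and on that scale the 9 genes spanned a very wide range. C3 had 1667, 1600 and 3431 CPM per kb of exon in KO replicates 1, 2 and 3, against 1257, 1137 and 2200 in WT replicates 1, 2 and 3. Serping1, which encodes the C1 inhibitor, came next with 422, 405 and 242 CPM per kb in KO and 292, 271 and 266 in WT. Averaged over the 6 libraries, the C3 level per kb was 5.96 times that of Serping1, 49.1 times that of C4b and 428 times that of C2. The C3 and Serping1 ranges did not meet each other or those of the other members.

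Below these, 4 members lay close together. Means over the 6 libraries were 38.3 ± 7.28 CPM per kb for C4b, 37.6 ± 6.61 for C1ra, 27.4 ± 9.02 for Cfb and 25.9 ± 3.96 for Cd55 (SD, n = 6). These SDs pool both genotypes, and the order of Cfb and Cd55 depended on genotype: 35 ± 4.45 against 22.3 ± 0.955 CPM per kb in KO, and 19.8 ± 3.05 against 29.4 ± 0.951 in WT (SD, n = 3 each), with no overlap between both genes in either genotype. C4b and C1ra overlapped in each genotype, and C1ra and Cfb overlapped in KO but not in WT. C7 followed with 7.25 ± 2.53 CPM per kb and C2 with 4.4 ± 1.69, and their libraries overlapped in KO but not in WT. With the longest transcript as the length, Cd55 moved ahead of C1ra and Cfb, at 40 CPM per kb, and the other members kept their order. On that length Cfb and Cd55 overlapped in KO, at 36 ± 4.57 and 34.6 ± 1.48 CPM per kb. In WT they stayed apart, at 20.3 ± 3.13 and 45.5 ± 1.47, so the separation in KO depended on the length used. Cfd was last, with 0.0337 CPM per kb in its highest library.

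**Figure D1:**
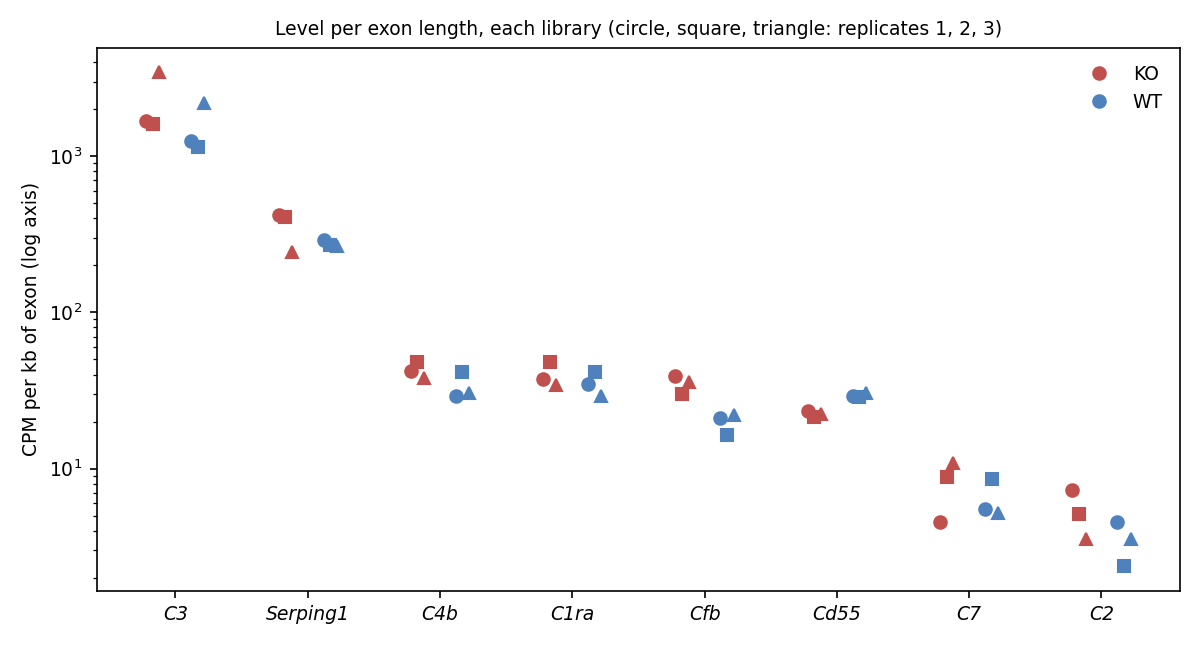
CPM per kb of exon (log axis) of 8 members in each library, ordered by the mean over 6 libraries, with KO points left of WT points and a different symbol for each replicate number. C3 lies between 1137 and 3431 CPM per kb and C2 between 2.38 and 7.25; Cfd, with libraries at 0, is not drawn.

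Of the 8 members tested, 7 had a positive log2 change in KO and 1, Cd55, a negative one, where 52.1% of all tested genes were positive. None passed edgeR's quasi-likelihood test at an adjusted p of 0.05, higher (0 of 8, background 0%) or lower (0 of 8, background 0.0204%). At an unadjusted p under 0.05, 1 was higher, Cfb (background 5.27%), and 1 lower, Cd55 (background 3.29%), or 2 of 8 against 8.56% in either direction. DESeq2 called 1 of the 8, Cfb, as higher and 0 as lower, against 1.24% and 0.677% of genes (1.92% in all), and limma-voom called 0. KO and WT libraries did not overlap for 2 members, Cfb above and Cd55 below, against a background of 14.2% of tested genes. Over the 8 tested members the median log2 change was 0.35, against 0.01 over all tested genes. In all, edgeR called 4 of 19599 genes, and 7 with the replicate number as a block, which moved no member past the threshold. With that block, unadjusted p was under 0.05 for 2 members higher in KO, Cfb and C2 (background 6.25%), and 1 lower, Cd55 (background 4.21%). In same-numbered pairs, C1ra, C2, C4b, C3 and Cfb were higher in KO in 3 of 3 pairs, against 16.4% of tested genes, and Cd55 was lower in 3 of 3, against 15.7%. The sources used here do not say that these numbers pair libraries, so the pairs and the block may be arbitrary.

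**Figure D2:**
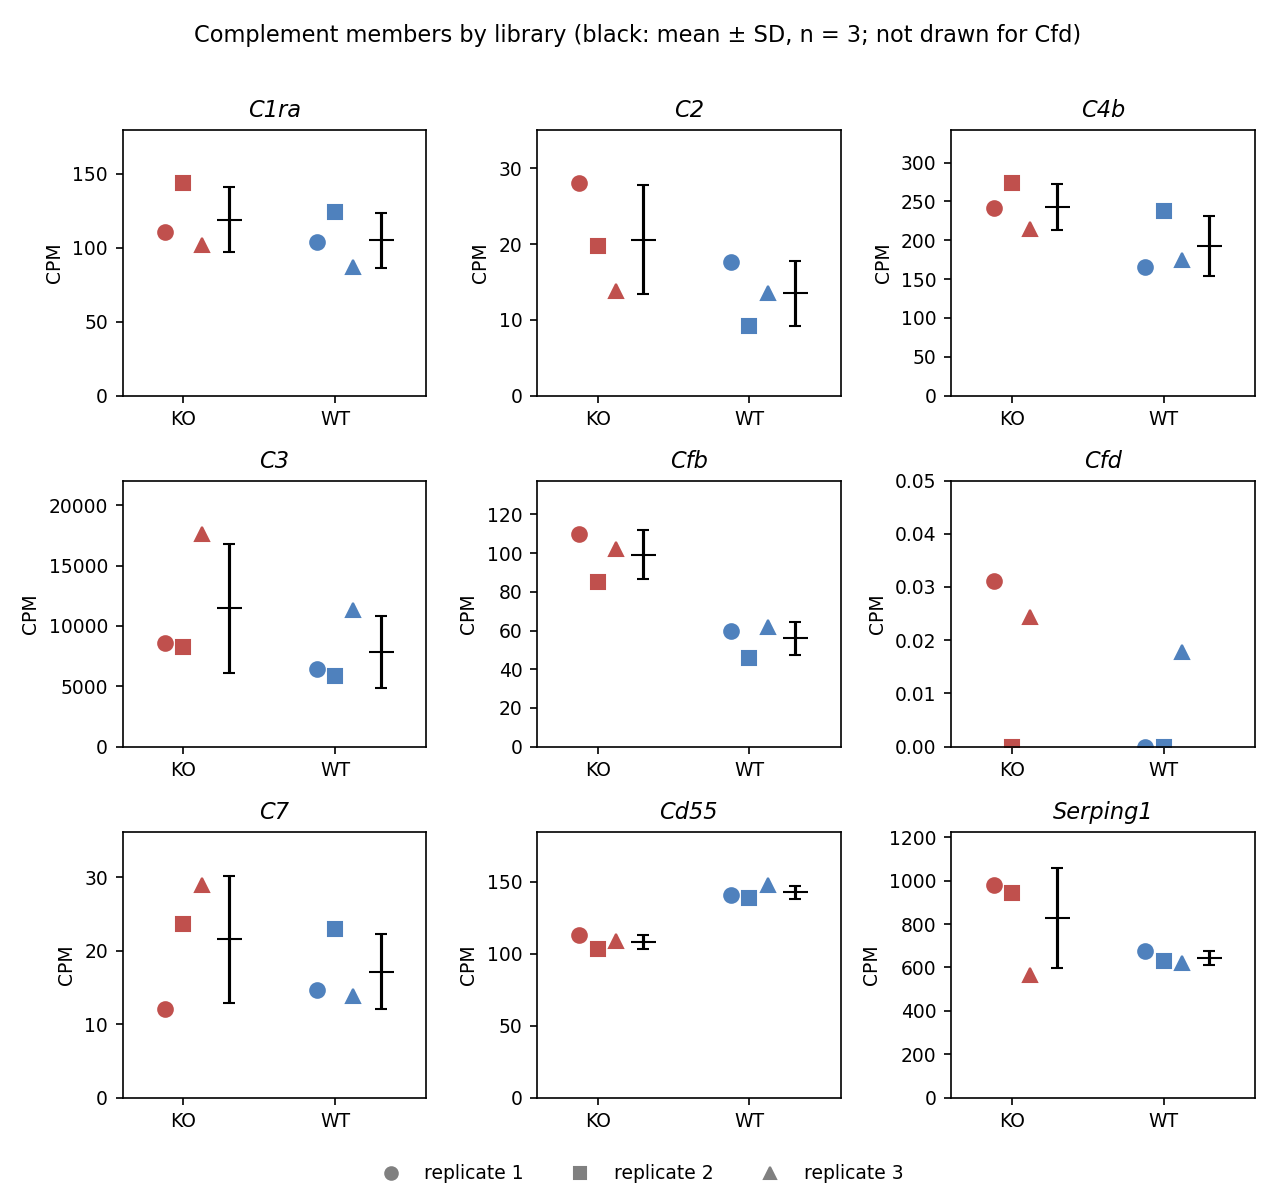
CPM of each member (linear axes from 0) in the 3 KO libraries at left and the 3 WT libraries at right of each panel, with symbols for replicate numbers and black bars for mean ± SD. Only Cfb (85.2 to 110 CPM in KO, 46 to 62 in WT) and Cd55 (103 to 113 in KO, 139 to 148 in WT) have groups that do not overlap; Cfd is at or near 0 throughout.

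Cfb encodes factor B, the protease zymogen that joins C3b in the convertase of the alternative route. It had 110, 85.2 and 102 CPM in KO replicates 1, 2 and 3, against 59.7, 46 and 62 CPM in WT replicates 1, 2 and 3. The lowest KO library was 85.2 CPM and the highest WT library 62 CPM, so the groups were apart. The KO mean was 99 ± 12.6 CPM and the WT mean 55.9 ± 8.62 CPM (SD, n = 3 each), a ratio of 1.77 (log2 0.82 ± 0.17 SE, 95% interval 0.44 to 1.21). The adjusted p was 0.232 in edgeR and 0.00639 in DESeq2, so the call depended on the tool. Leaving out any 1 library gave log2 changes of 0.70 to 0.93. Its rank by p among the 19599 genes was 116.

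Cfb lies on chromosome 17 at 34856374 to 34862518 (mm10, minus strand), in the major histocompatibility complex, next to C2 at 34862604 to 34895547 on the same strand. GENCODE M21 lists a transcribed locus, Gm20547, whose exons share 79.5% of the exonic bases of Cfb and part of those of C2; that locus is not among the genes of the deposited tables. C2 is the counterpart of factor B in the classical and lectin convertase. It had 28.1, 19.8 and 13.8 CPM in KO replicates 1, 2 and 3, against 17.7, 9.21 and 13.6 CPM in WT replicates 1, 2 and 3. KO replicate 3 lay inside the WT range and the other 2 KO libraries above it. The log2 change was 0.61 ± 0.31 SE (edgeR adjusted p = 0.681) and ran from 0.32 without KO replicate 1 to 0.85 without WT replicate 1. Within libraries, Cfb counts were 3.92, 4.3 and 7.4 times those of C2 in KO and 3.38, 5 and 4.55 times in WT. Exons of Zbtb12, on the other strand, overlap 161 bases of C2, and its counts were 31.1% of those of C2, so part of the C2 count is uncertain.

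Of the members on the classical route, C4b encodes C4, the thioester protein cut by C1s, and C1ra the C1r protease that activates C1s. C4b had 241, 274 and 215 CPM in KO replicates 1, 2 and 3, against 166, 237 and 174 CPM in WT replicates 1, 2 and 3. The KO libraries were the higher at each replicate number, while WT replicate 2 reached into the KO range. The log2 change was 0.34 ± 0.18 SE (95% interval −0.09 to 0.77, edgeR adjusted p = 0.711). C1ra had 111, 144 and 102 CPM in KO and 104, 124 and 87.2 CPM in WT, in the same replicate order. Its groups overlapped across most of their range, with a log2 change of 0.18 ± 0.19 SE (95% interval −0.27 to 0.62, edgeR adjusted p = 0.899). C4b has a close relative in C4a, and C1ra in C1rb, so reads that fit both copies make these counts uncertain; C4a had 0.944 to 1.31 CPM and C1rb 0.404 to 0.739 CPM over the 6 libraries.

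C3, the component on which the routes meet, was among the most abundant transcripts of the tissue. It took 0.848%, 0.82% and 1.81% of all counts in KO replicates 1, 2 and 3, and 0.637%, 0.575% and 1.15% in WT replicates 1, 2 and 3. The exact 95% binomial interval, which covers counting error only, was 1.8075 to 1.8157% for KO replicate 3, so the libraries differ by far more than counting error. By counts C3 ranked 4, 6 and 1 among all genes in KO libraries and 9, 14 and 2 in WT libraries. It supplied 83.8 to 94% of the summed counts of the 9 members in KO and 82.9 to 91% in WT.

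C3 had 8574, 8230 and 17645 CPM in KO replicates 1, 2 and 3, against 6463, 5848 and 11313 CPM in WT replicates 1, 2 and 3. Replicate 3 was the highest of its genotype in both groups, and WT replicate 3 stood above KO replicates 1 and 2, so the groups overlapped. The log2 change was 0.54 ± 0.41 SE (95% interval −0.40 to 1.49, edgeR adjusted p = 0.816). It was 0.09 without KO replicate 3 and 0.90 without WT replicate 3, and the groups did not overlap once WT replicate 3 was left out, as for 22% of tested genes. Within same-numbered pairs, which may be arbitrary, C3 was higher in KO in 3 of 3. With the replicate number as a block it was 0.51 (edgeR unadjusted p = 0.0754, adjusted p = 0.549).

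Epithelial marker signal, like C3, was highest in replicate 3 of each genotype. Beside the C3 values above, the summed epithelial markers (Epcam, Krt8, Krt18, Krt19, Cdh1 and Cldn4, 6 of 6 detected) were 1848, 609 and 3106 CPM in KO replicates 1, 2 and 3 and 1625, 1055 and 2331 CPM in WT replicates 1, 2 and 3. C3 was 4.64, 13.5 and 5.68 times this sum in KO and 3.98, 5.54 and 4.85 times in WT. KO replicate 2 stood apart, with the least epithelial signal of the 6 libraries and a C3 level near that of KO replicate 1. The part of epithelial content in the C3 values was not tested. Summed over 6 oestrogen-responsive uterine genes, CPM was 2549, 2242 and 4047 in KO and 2482, 1464 and 3031 in WT, with the same library highest in each genotype. Ltf and Lcn2 made up most of that sum in each library. Greb1 had the other sign, with 65.3, 80.5 and 104 CPM in KO against 111, 132 and 117 CPM in WT, Igf1 was highest in KO replicate 1 and WT replicate 2, and Sprr2a1 was near 0.

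**Figure D3:**
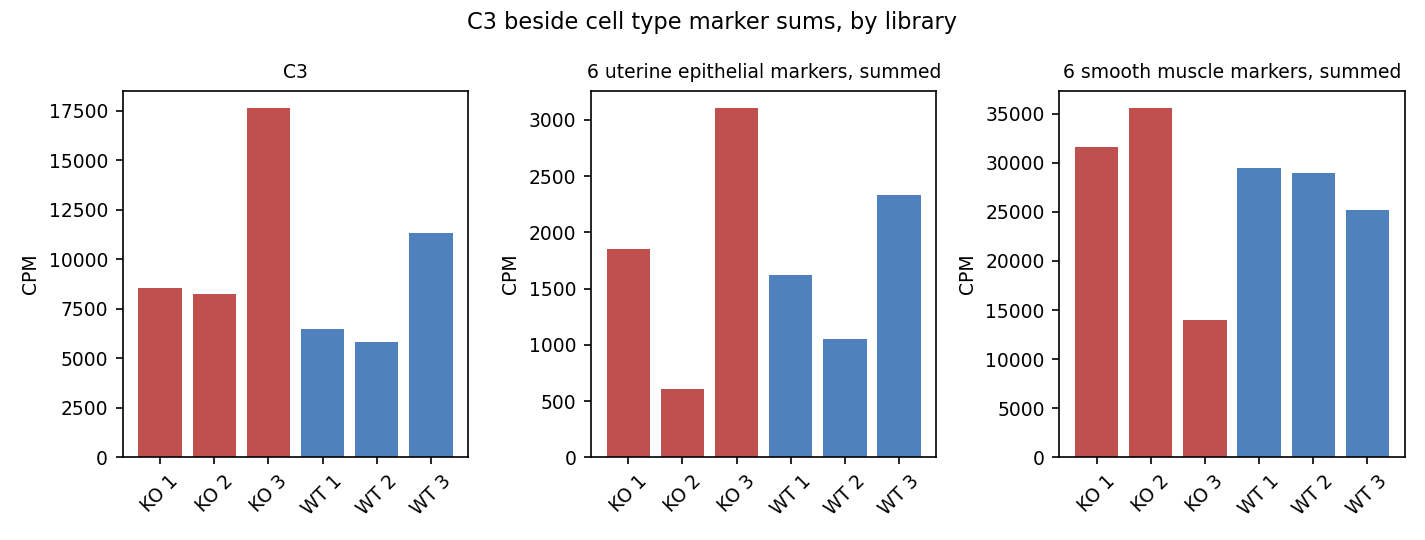
Bars from 0 of C3 (left), 6 summed uterine epithelial markers (middle) and 6 summed smooth muscle markers (right), in CPM, for KO replicates 1 to 3 and then WT replicates 1 to 3. KO replicate 3 has the highest C3 (17645 CPM) and epithelial sum (3106 CPM) and the lowest muscle sum (13979 CPM); KO replicate 2 has the lowest epithelial sum (609 CPM) with 8230 CPM of C3.

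The genes whose level followed C3 most closely over the 6 libraries were found by the root mean square difference of centred log2 CPM, among 10155 genes with a mean of at least 10 CPM. Among the 5 nearest were Il17re, a receptor subunit for interleukin 17C (difference 0.1), the vitamin C transporter gene Slc23a1 (0.13), the membrane protease gene Tmprss2 (0.14) and Wfs1, a gene for a protein of the endoplasmic reticulum (0.15). Tmprss2 had 113, 92.4 and 208 CPM in KO and 75.3, 87.4 and 150 CPM in WT. The other complement members were not close to C3. Cfb was nearest, at 0.44 and rank 1181, and C1ra, C2, C4b, C7, Cd55 and Serping1 had differences of 0.59 to 0.72, where the median of all genes was 0.57.

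Cfd encodes factor D, also called adipsin, the fat-cell protease that cuts factor B. It was close to absent, with 2, 0 and 1 counts in KO libraries and 0, 0 and 1 counts in WT libraries, and too low to be tested. A count of 0 allows up to 3 counts. Relative to unscaled total counts, that is 0.0539 CPM in KO replicate 2 and 0.0634 and 0.0569 CPM in WT replicates 1 and 2. Adipocyte markers were near 0 as well: 5 of 5 (Adipoq, Plin1, Cidec, Lep and Retn) were below the testing limit, with sums of 0.0933 to 0.144 CPM in KO and 0.0357 to 0.0429 CPM in WT. At this depth no difference in Cfd between the genotypes was detectable.

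C7 encodes a subunit of the membrane attack complex, the pore at the end of the cascade. It had 12.1, 23.7 and 29 CPM in KO replicates 1, 2 and 3, against 14.7, 23 and 13.8 CPM in WT replicates 1, 2 and 3. KO replicate 1 was the lowest of the 6 libraries and KO replicate 3 the highest, so the KO group enclosed the WT range. The log2 change was 0.33 ± 0.34 SE (edgeR adjusted p = 0.89), with 0.06 without KO replicate 3 and 0.63 without KO replicate 1.

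Cd55 and Serping1 are inhibitors, and their genotype differences had opposite signs. Cd55 encodes decay-accelerating factor, a membrane protein that takes C3 and C5 convertases apart on the cell's own surface. It had 113, 103 and 109 CPM in KO replicates 1, 2 and 3, against 141, 139 and 148 CPM in WT replicates 1, 2 and 3. Every KO library lay below every WT library, and the spread within genotypes was the narrowest of the 8 tested members, with 108 ± 4.63 CPM in KO and 143 ± 4.62 CPM in WT (SD, n = 3 each). The ratio was 0.76 (log2 −0.40 ± 0.12 SE, 95% interval −0.67 to −0.12), which did not pass in edgeR (adjusted p = 0.378) or DESeq2 (0.125). Leaving out any 1 library gave −0.42 to −0.36. Cd55 lies on chromosome 1 at 130439027 to 130462744 (mm10, minus strand), and its relative Cd55b next to it had at most 0.135 CPM.

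Serping1 encodes the C1 inhibitor, a secreted serpin that blocks C1r and C1s. It had 981, 942 and 564 CPM in KO replicates 1, 2 and 3, against 678, 631 and 619 CPM in WT replicates 1, 2 and 3. KO replicates 1 and 2 were above all WT libraries and KO replicate 3 below all of them. The log2 change was 0.37 ± 0.23 SE (95% interval −0.18 to 0.91, edgeR adjusted p = 0.768), and 0.58 without KO replicate 3. KO replicate 3 is the library with the lowest smooth muscle sum; the part of muscle content in this value was not tested.

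Cfb was at least 0.62 above the WT mean of log2 CPM in each of the 3 KO libraries, and the other high members differed in part between them. In KO replicate 1, C2 and Cfb were 1.10 and 0.99 above the WT mean of log2 CPM, and C7 was at −0.46. In KO replicate 3, C3, Cfb and C7 were 1.23, 0.88 and 0.79 above it, and Serping1 was at −0.19. KO replicate 2 held no member beyond 0.62 from the WT mean, and 7 of 8 members were above it, against 6 in KO replicate 1 and 5 in KO replicate 3. Without KO replicate 3, groups did not overlap for 5 members, C2, C4b, Cfb, Cd55 and Serping1; at that group size 27% of tested genes did not overlap, and none of the 8 passed the edgeR threshold.

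**Figure D4:**
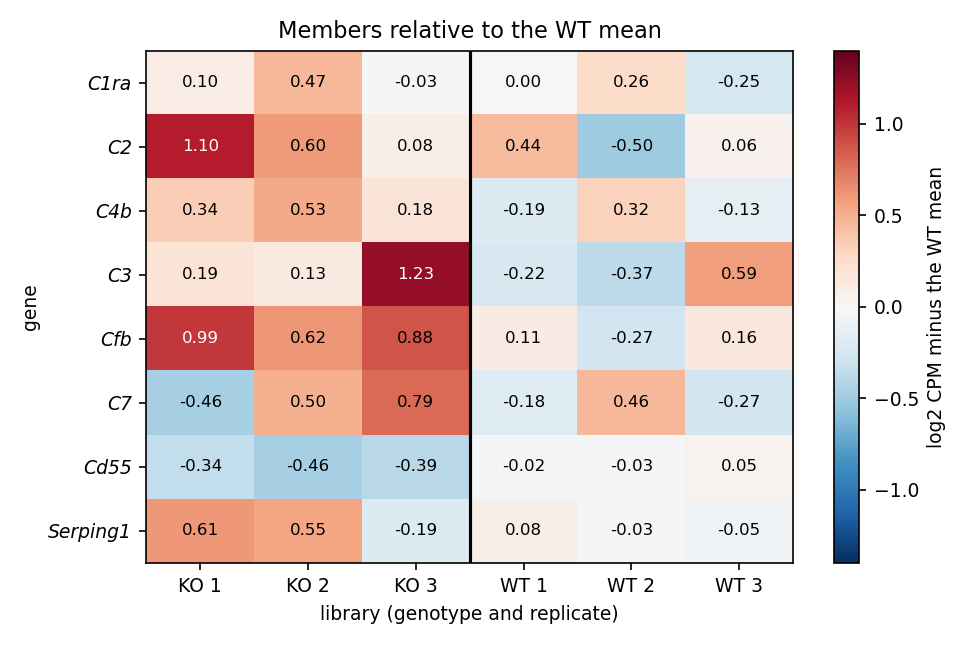
Log2 CPM of each tested member minus the WT mean of that gene, for the 3 KO libraries left of the line and the 3 WT libraries right of it. Cfb is positive (0.62 to 0.99) and Cd55 negative (−0.46 to −0.34) in 3 of 3 KO libraries, while C7 and Serping1 have both signs.

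The rest of the pathway was followed through 49 other complement genes, of which 38 had enough counts to be tested. None passed the edgeR threshold in either direction; 31 had positive and 7 negative log2 changes, with a median of 0.16, where 52.1% of all tested genes were positive and their median was 0.01. At an unadjusted p under 0.05, 3 were higher (background 5.27%) and 0 lower (background 3.29%), and DESeq2 called 1, Fcna (background 1.92%). Groups did not overlap for 5 genes higher in KO (background 7.22%) and 2 lower (background 7.01%).

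Initiating proteins were uneven. Fcna encodes ficolin A, a mouse lectin-route protein made by macrophages. It had 121, 72.4 and 184 CPM in KO replicates 1, 2 and 3, against 58.9, 61.3 and 47 CPM in WT replicates 1, 2 and 3. KO replicate 2 was the closest to the WT libraries and still above them. The log2 change of 1.18 ± 0.32 SE had an adjusted p of 0.339 in edgeR and 0.0256 in DESeq2. Beside it, the summed level of 6 macrophage markers (Adgre1, Csf1r, Cd68, Mrc1, C1qa and Lyz2) overlapped between genotypes, at 1375 to 1638 CPM in KO and 1211 to 1634 CPM in WT. The 7 tested genes of the C1 complex and its proteases had log2 changes of 0.01 to 0.49 and overlapping groups, with C1qa at 292 ± 48.8 CPM in KO and 265 ± 40.1 CPM in WT (SD, n = 3 each). Colec12, a scavenger receptor with a collectin domain, had the other sign: 135, 164 and 96.4 CPM in KO, against 185, 196 and 169 CPM in WT (log2 −0.47 ± 0.20 SE, edgeR adjusted p = 0.585). Of the 9 lectin-route genes, 5 were too low to be tested, among them Masp2 and both mannose-binding lectin genes, Mbl1 and Mbl2.

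Among 16 regulators, 12 were tested, 9 with positive and 3 with negative changes. Cfi encodes factor I, the protease that inactivates C3b and C4b, and had 17.1, 14 and 25.6 CPM in KO, against 12.2, 8.05 and 13.4 CPM in WT. The KO libraries were all above the WT libraries, with the lowest KO value close to the highest WT value (log2 0.75 ± 0.28 SE, edgeR adjusted p = 0.509). With the replicate number as a block its unadjusted p was 0.00269 and its adjusted p 0.211. Of the membrane inhibitors other than Cd55, Cd59a, which blocks the pore, had a log2 change of 0.46 ± 0.25 SE (adjusted p = 0.707), and Cr1l, the rodent regulator Crry, one of 0.02 ± 0.12 SE. For Cr1l the 95% interval was −0.26 to 0.30. Cd46, which serves factor I as a cofactor, had a log2 change of −0.11 with overlapping groups.

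Receptor genes had positive changes in 8 of 9 cases, where 52.1% of all tested genes were positive, and their median was 0.30. Itgax, the alpha subunit of complement receptor 4, had 7.91, 7.48 and 9.12 CPM in KO, against 5.17, 3.16 and 6.85 CPM in WT (log2 0.69 ± 0.29 SE, edgeR adjusted p = 0.562). The anaphylatoxin receptor genes C3ar1 and C5ar1 had log2 changes of 0.30 ± 0.16 and 0.33 ± 0.18 SE, and their groups overlapped. The late components other than C7 were scarce. Of C6, C8a, C8b, C8g and C9, 3 were tested, the highest being C6 at 5.5 ± 0.615 CPM in KO and 5.18 ± 1.41 CPM in WT (SD, n = 3 each), and Hc, which encodes C5, had 4.17 ± 3.17 and 4.03 ± 1.43 CPM in the same order. C8a was lower in each KO library, at 0.20 to 0.63 CPM in KO and 0.73 to 0.89 CPM in WT (log2 −0.92 ± 0.42 SE, adjusted p = 0.613).

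**Figure D5:**
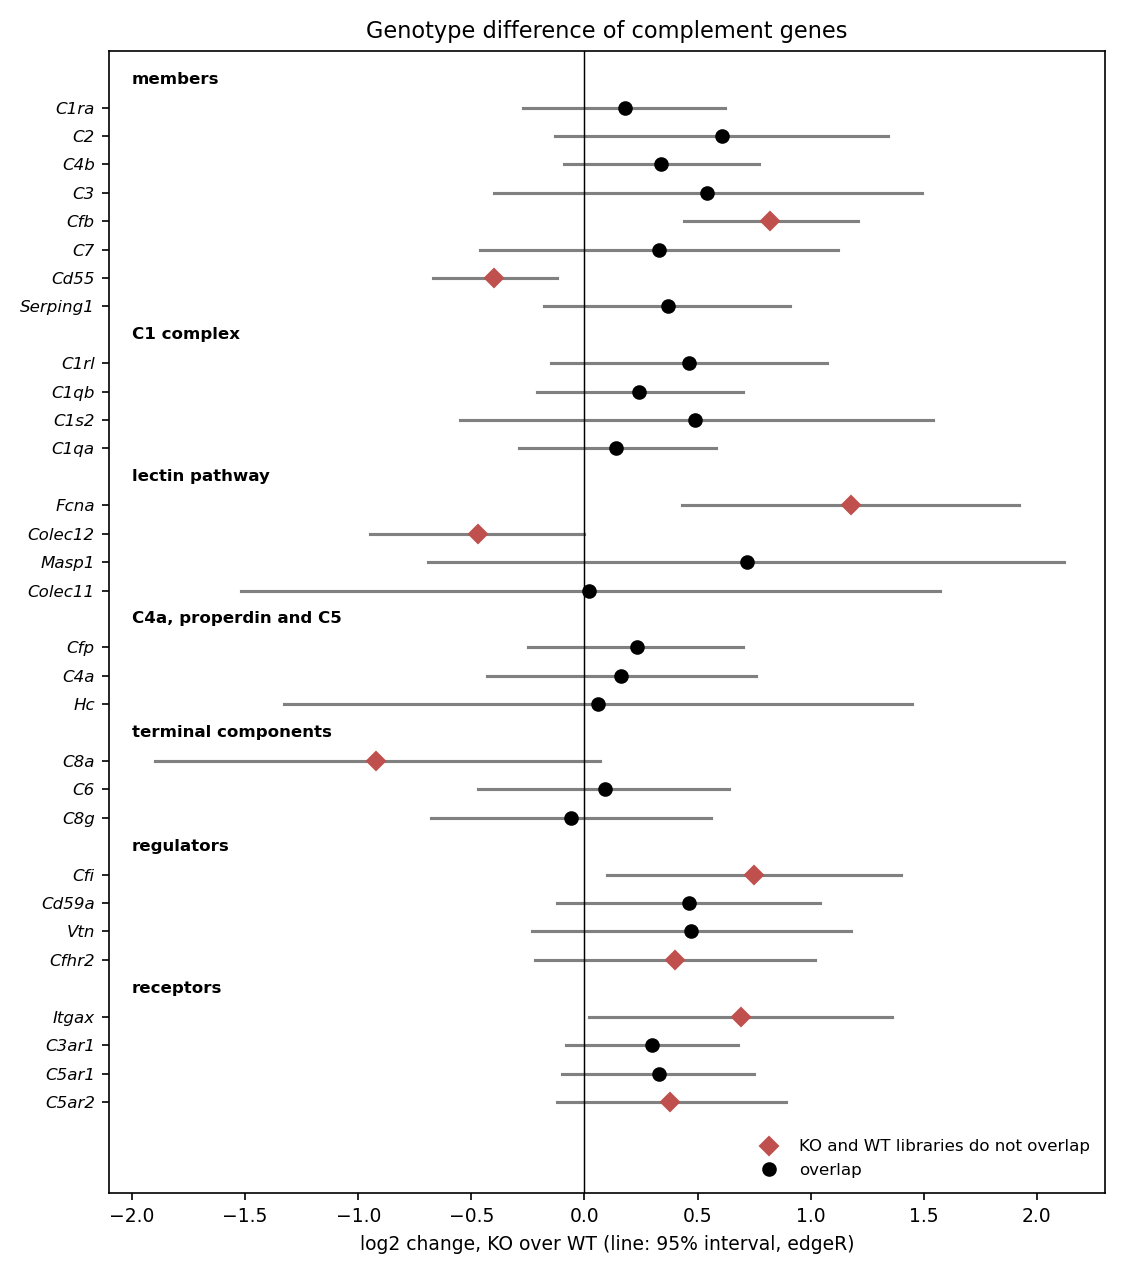
Log2 change of KO over WT with its 95% interval from edgeR for the 8 tested members and, by role, up to 4 other complement genes with the smallest p. Red diamonds mark genes whose KO and WT libraries do not overlap, among them Cfb (0.82), Fcna (1.18), Cfi (0.75), Cd55 (−0.40) and Colec12 (−0.47); none passed the adjusted threshold.

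Neutrophil and interferon genes were also read beside the members, since C2, C4b, Cfb and Serping1 are known to respond to interferon gamma. Of 7 interferon-response genes, 7 had positive log2 changes, and their summed CPM was 364, 261 and 274 in KO, against 266, 237 and 267 in WT, overlapping between genotypes. In 2 of them the libraries did not overlap: Tap1, a peptide transporter gene, had 38.1, 30.2 and 37.2 CPM in KO against 25.6, 24 and 28 CPM in WT (edgeR adjusted p = 0.409), and Irf1, a transcription factor gene, had 30.6, 25.9 and 29.8 CPM in KO against 23.7, 20.1 and 25.6 CPM in WT (edgeR adjusted p = 0.601). Of all tested genes, 7.22% had every KO library above every WT library. The sum of 5 neutrophil markers reached 31.1 CPM in KO and 10.8 CPM in WT, and all 3 KO libraries lay above all 3 WT libraries. Csf3r, the granulocyte colony-stimulating factor receptor gene, gave the largest part of that sum in each library, with 13.9, 14.2 and 12.1 CPM in KO replicates 1, 2 and 3 and 6.13, 8.34 and 5.32 CPM in WT replicates 1, 2 and 3. Its KO to WT ratio of 2.03 was the smallest of the 4 tested, the others being 7.13 for S100a9, 5.13 for S100a8 and 4.24 for Cxcr2. DESeq2 called all 4 as higher in KO (adjusted p of 1.93e-06 to 0.0021), against 1.24% of genes, and edgeR called none (adjusted p of 0.204 to 0.283). The part of either in the values of Cfb, C2, C4b or Serping1 was not tested.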

How the data were processed

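Poly(A) RNA of myometrium from 3 Tcf23 KO and 3 Tcf23 WT mice was sequenced from directional libraries, per the labels' protocols. The authors deposited, for each library, a raw count per gene and, in a joint table, normalized values, a signal equal to each count times 1 constant per library (checked, largest relative deviation 5.3e-10). Per the submitters' processing notes, the build was mm10 and the tools were HISAT2 2.2.1, HTSeq 0.9.1, DESeq2 2.11.40.7 and FastQC 0.73; the sources used here give no strand setting or annotation release.

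The members and gene lists were chosen with earlier results of these data known. The test of the counts was that of edgeR 4.0.16 under R 4.3.3 (filterByExpr, TMM, quasi-likelihood, Benjamini-Hochberg over all tested genes, threshold 0.05), after a test on simulated data. CPM is relative to TMM-scaled library sizes, except for the limits given for Cfd counts of 0, which use total counts. Exon lengths are unions of GENCODE M21 exons (mm10). Named are Tcf23, the members, in each role up to 4 other complement genes of smallest p, others as part of a sum or count, and genes among the 5 most like C3, of which 1 is not reported here; Cr1l, Cd46, Mbl1, Mbl2, Masp2, C1rb, Cd55b, C8b, C9 and single marker genes were added after their values were seen. DESeq2 1.42.0, limma 3.58.1, other scalings and filters, a replicate block and leaving out each library were alternatives. The sources used here do not say that replicate numbers pair libraries, so the main test used no block. Deviations of same-numbered libraries correlated at 0.131, 0.25 and 0.318 across genes. Those of KO and WT libraries with different numbers correlated at −0.308 to 0.12. Deviations were centred within each genotype, which ties these values to the same-numbered ones, so they are not a separate observation. Whether the numbers mark pairs is uncertain. Libraries of 1 genotype were not duplicates (their counts gave a chi-square of 32.5 to 209 for each degree of freedom). The sources used here do not say whether animals were littermates.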

Additional observations from a re-analysis of the deposited data

How the results depend on the processing

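Each of the 8 tested members kept the sign of its log2 change under all 15 alternatives run (120 of 120), and 119 of 120 also kept their side of the threshold; the exception was Cfb in DESeq2. The alternatives reuse the same libraries, so these counts are not independent. No member was past the threshold in the main fit, and the C1ra change was as small as 0.03, without KO replicate 2. The count of members past the threshold was 1 in DESeq2 and 0 in the other alternatives, 0 without any 1 library, and that of other complement genes was likewise 1 in DESeq2 (Fcna) and 0 elsewhere. The count over all genes, 4, was 12 with upper-quartile scaling, 81 with no filter, 382 with DESeq2 and 7 with the replicate block, and 1 to 7 with 1 library left out; the cause was not tested. The replicate block changed no call of a complement gene. Members whose groups do not overlap numbered 2 to 5 with 1 library left out (5 without KO replicate 3), where 19.4 to 31.3% of tested genes did not overlap, and 2 on other scales, an alternative chosen after seeing the data. With the longest transcript as length, levels per kb were 6.45 for C2, 40 for Cd55 and 416 for Serping1. Signs that turned, none past the threshold, are given with the range over left-out libraries where one turned them. They were those of Colec11 (−0.02 in DESeq2, −0.43 in limma-voom, −0.28 with the block, −0.49 in limma on log2 of the normalized values plus 1, −1.14 to 0.44 with 1 library left out, including −0.09 without WT replicate 3), Hc (−0.16, −0.15 and −0.24 in limma-voom, with the block and in limma on normalized values, −0.67 to 0.49 with 1 left out, including −0.19 without WT replicate 2), C1s2 (−0.12 to 0.77, lowest without KO replicate 3), Masp1 (−0.13 to 1.12, lowest without KO replicate 1), C6 (−0.06 to 0.33, lowest without WT replicate 3) and C8g (−0.22 to 0.11, highest without WT replicate 2). With 3 animals per genotype, the members' 95% intervals were wide, from −0.40 to 1.49 for C3.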
